A study of Mus musculus with 141 samples.

Results

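The genes of the mouse MHC class II system were followed in 3 organs (liver, lung, kidney) across 47 Collaborative Cross strains, inbred mice whose genomes are mosaics of a shared set of founder haplotypes. The set was chosen by gene symbol and holds 10 of the 24423 genes in the files: the chain genes H2-Aa, H2-Ab1, H2-Eb1 and H2-Eb2, the peptide-loading genes H2-DMa, H2-DMb1, H2-DMb2 and H2-Oa, the invariant chain gene Cd74 and the transactivator gene Ciita. All 10 were listed in every library, and 9 of them, all but Ciita, passed the filter on low counts that left 12127 genes for testing.

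Class II molecules are pairs of an alpha and a beta chain that carry peptides from engulfed proteins to the surface of dendritic cells, B cells and macrophages, where CD4+ T cells read them. H2-Aa and H2-Ab1 encode the chains of the I-A molecule and H2-Eb1 the beta chain of I-E, whose alpha chain is encoded by H2-Ea and is not made by every mouse haplotype. Cd74 is the chaperone that fills the groove before peptides arrive, H2-DM, encoded by H2-DMa and the H2-DMb genes, exchanges the remnant of that chaperone for peptide, and H2-O, of which H2-Oa encodes the alpha chain, restrains H2-DM. Ciita encodes the coactivator that switches these genes on through proteins bound to the X and Y boxes of their promoters.

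Liver, lung and kidney were each represented by 47 libraries, 1 from a single male mouse of each strain, so that strain, mouse and whatever the 3 libraries of a mouse share cannot be told apart. The mice were adults of 8 to 12 weeks, all held in chambers of clear air for 6 hours a day over 2 weeks, and ribosome-depleted total RNA of whole frozen tissue was sequenced. Total counts per library ranged from 1738046 to 42158454 (median 9043226), and 21 libraries held fewer than 5000000. Markers of the labelled tissue were in place. The summed level of 6 hepatocyte genes lay between 30949 and 131356 TPM in liver. TPM is transcript abundance corrected for length and scaled to the same total in each library. In the other tissues this sum was at most 1795, the value of the CC010 lung library, 14.1 times the lung median. The sum of 7 alveolar type 2 cell genes lay between 4839 and 45382 in lung, against 1162 to 4332 in kidney and at most 76.6 in liver. That of 6 kidney proximal tubule genes lay between 30119 and 164886 in kidney, and was at most 1656 in liver and 711.8 in lung.

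Some libraries stood apart in the class II genes themselves. The liver library of CC032 and the lung library of CC010 carried transcripts of H2-Ea that the other libraries of the same strain lacked. In the lung library of CC042, Cd74 was at 80.7% of the TPM of H2-Aa, against 16.7% in its liver and 11.4% in its kidney. CC016 had the highest H2-Aa, H2-Ab1, H2-DMa, H2-DMb1 and Cd74 in liver and kidney, CC020 was next to it for these genes in kidney, and the lung library of CC015 was the lowest of its tissue in TPM in all 10 genes, though with TMM scaling in only 4 (H2-Eb2, H2-DMb1, H2-DMb2 and H2-Oa). Whether each library came from the strain on its label was not tested. Counts that change without these strains are given beside the results.

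In NCBIM37, the build of the files, 8 of the 10 genes lie on chromosome 17 between 34229285 and 34477174, with Cd74 and Ciita on other chromosomes. All 10 are annotated as protein-coding genes there. H2-Ab1 (chr17:34400154-34406363, plus strand) and H2-Aa (chr17:34406276-34424772, minus strand) point towards each other and their gene models share 88 bases, so reads from the shared ends could be counted for either where strand was not used. H2-Eb1 is at chr17:34442828-34453144 and H2-Eb2 at chr17:34462610-34477174. H2-DMb1 and H2-DMb2 are close relatives side by side (chr17:34290017-34297168 and chr17:34280252-34288498), and a read shared between such copies can be lost or misplaced when only uniquely aligned reads are counted.

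The promoters were searched for the elements through which Ciita acts. RefSeq promoter sequences (GRCm38.p6, 250 bases before to 50 after a start site) were at hand for 7 of the 10 genes, leaving out H2-Ab1, Cd74 and Ciita. The stretches of H2-Aa, H2-Eb1 and H2-Eb2 below are shown because they are the chain genes of the set with a promoter entry, with the X box (searched as AGNNAC followed without a gap by NGATG) and the Y box core (ATTGG) in capitals. They were placed in NCBIM37 by an exact match, at chr17:34424808-34424858 (minus strand), chr17:34442711-34442761 (plus strand) and chr17:34462478-34462528 (plus strand).
H2-Aa: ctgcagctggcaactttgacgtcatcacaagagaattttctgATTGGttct
H2-Eb1: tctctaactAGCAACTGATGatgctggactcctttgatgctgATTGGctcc
H2-Eb2: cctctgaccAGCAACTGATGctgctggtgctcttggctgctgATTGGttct
The X box began 33 bases before the Y box core in both H2-Eb1 and H2-Eb2, and in the H2-Aa stretch only the Y box core matched. The X box was searched with a fixed pattern, so an X box with other letters would be missed. Among 32851 promoters of the same length, 37.4% held the Y box core on either strand, 0.968% the X box and 0.387% both, and of the class II promoters H2-Eb1, H2-Eb2, H2-DMb1 and H2-Oa held both. In H2-DMb1 the X box began 34 bases before the Y box core, and in H2-Oa 98 bases before it. H2-DMb1 and H2-DMb2 are set side by side because the copies differ in level and in this element. The 27 bases lie at chr17:34290033-34290059, where NCBIM37 has an annotated exon of H2-DMb1, and at chr17:34282062-34282088, within the gene model of H2-DMb2.
H2-DMb1: gtttacctAGTAACTGATGatgctagg
H2-DMb2: gtttacctattaaccgatgatgctagg
The H2-DMb2 stretch differed from that of H2-DMb1 at 2 positions, G10T and T15C, counted from the first base shown with the H2-DMb1 base first. Both lie in the X box, but T15C falls on a free position (N) of the pattern, so G10T alone breaks the match. These are matches of letters in the reference sequence and not measured binding.

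Lung had the highest level of every class II gene, and within each tissue the I-A chains led. The median TPM of H2-Aa over 47 strains was 859.9 in lung (lowest 149.1, highest 2227), 134.4 in kidney (30.5 to 2431) and 49.8 in liver (7.54 to 1444). H2-Ab1, its partner chain, had a median of 512.4 TPM in lung (71.0 to 962.1), 86.6 in kidney (23.3 to 1490) and 31.8 in liver (4.74 to 618.5). The ranges overlapped: the highest liver and kidney values, all from CC016, lay within or above the lung range, and the lowest lung, from CC015, lay below the upper quartile of kidney H2-Aa (170.9 TPM).

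H2-Eb1, the I-E beta chain, reached a median of 254.8 TPM in lung (1.4 to 617.6), 51.4 in kidney (0 to 328.8) and 16.3 in liver (0 to 110.6), with a wide gap among strains that is taken up below. Cd74 was at a median of 137.4 TPM in lung (16.9 to 315.1), 16 in kidney (4.18 to 329.3) and 8.31 in liver (1.58 to 161.2). As Cd74 has 2 transcripts in the files and Ciita 5, while the other members have 1, counting of uniquely aligned reads may weigh on these genes differently, and this was not tested.

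The peptide-loading genes were lower. H2-DMa had a median of 50.02 TPM in lung (7.01 to 120.1), 7.09 in kidney (2.07 to 99.98) and 2.44 in liver (0.39 to 61.04). H2-DMb1 had 58.1 TPM in lung (4.75 to 104.8), 11.8 in kidney (2.72 to 171.5) and 2.55 in liver (0.44 to 61.2), whereas its copy H2-DMb2 had 20.1 TPM in lung (0.61 to 48.9), 1.05 in kidney (0 to 63.0) and 0.49 in liver (0 to 5.27). The median of H2-Oa was 9.66 TPM in lung (0 to 18.9), 0.78 in kidney (0 to 5.40) and 0 in liver (0 to 3.28).

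H2-Eb2, a beta chain gene beside H2-Eb1, and Ciita were the scarcest members. H2-Eb2 had a median of 2.68 TPM in lung (0 to 15.9), 0.08 in kidney (0 to 6.40) and 0 in liver (0 to 0.54), and Ciita 0.64 TPM in lung (0.09 to 3.73), 0.1 in kidney (0 to 1.04) and 0.04 in liver (0 to 0.5). A count of 3 or less was taken as not resolved, a floor that covers counting error only: 44 of 47 liver libraries and 40 of 47 kidney libraries were at or under it for H2-Eb2, 46 and 41 for Ciita, 45 and 30 for H2-Oa, and 40 and 31 for H2-DMb2. In lung it held at most 3 libraries for any of these 4 genes.

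**Figure D1:**
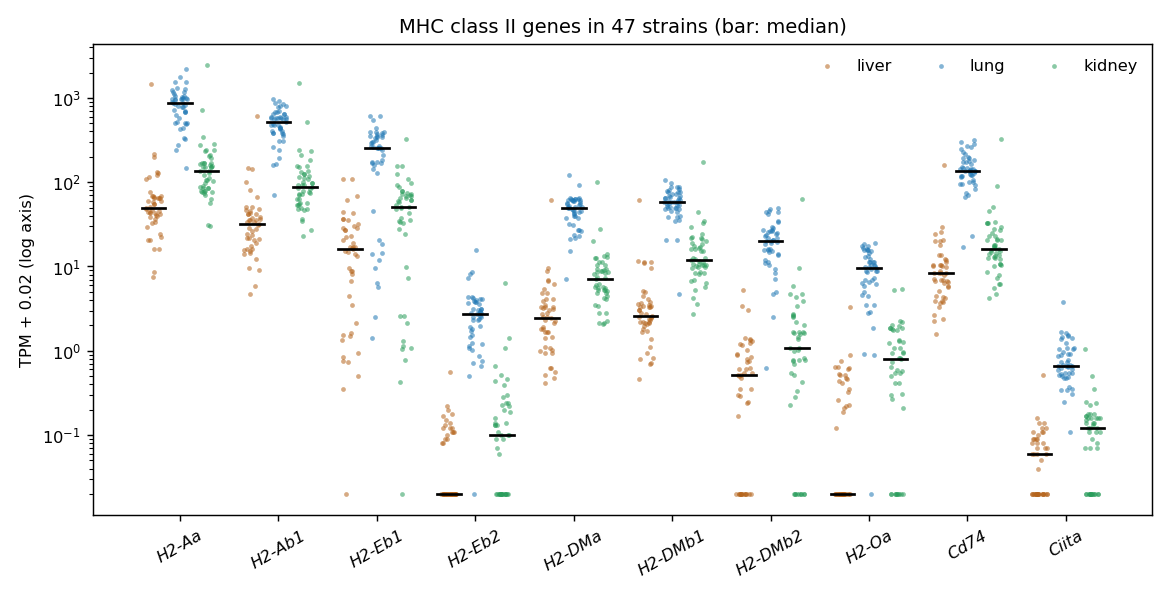
TPM plus 0.02 on a log axis for the 10 class II genes in liver (brown), lung (blue) and kidney (green), with 1 point for each of 47 strains and a bar at the median. Lung is highest in all 10 genes, H2-Eb1 is spread widely, into an upper and a lower band in lung, and values of 0 sit on the lowest line.

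The order of the genes by median TPM began with H2-Aa, H2-Ab1, H2-Eb1 and Cd74, in this order, in all 3 tissues. H2-Aa was above H2-Ab1 in 47 of 47 liver, 44 of 47 lung and 43 of 47 kidney libraries, with a mean log2 ratio of 0.71 ± 0.37 (SD, n = 47) in lung. H2-Eb1 and Cd74, neighbours in this order, have no single order over strains: in lung, the 36 strains with higher H2-Eb1 had a median of 293.9 TPM of it against 137.0 of Cd74, and the other 11 had 12.1 against 143.9. Among the other neighbours, H2-DMb1 and H2-DMa were not separated in liver (mean log2 ratio 0.22 ± 0.78, SD, sign-flip permutation test, adjusted p = 0.064 over 27 pairs), nor were Ciita and H2-Eb2 in liver (adjusted permutation p = 0.72) or in kidney (adjusted permutation p = 0.052), where both are near the floor. In lung all 8 pairs of neighbours other than H2-Eb1 and Cd74 differed, each with the smallest p that 100000 permutations can give.

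The tissue comparison asks which genes set the organs apart, and all 9 class II genes tested were higher in lung than in liver and than in kidney by limma-voom with strain as a block (called at q at most 0.1 with a log2 fold change of 1 or more in size). Of all 12127 genes, 54.9% were called between liver and lung, 31.2% as higher in lung, and between lung and kidney 24.6% were called higher in lung and 21.7% higher in kidney. The scale of these fold changes is log2 CPM after TMM, a scaling that matches the bulk of genes between libraries, and its contrasts with liver were smaller than those on the log2(TPM + 1) scale (median over the 9 genes -2.46 and -3.67 for liver against lung). H2-Aa was lower in liver than in lung by a log2 fold change of -2.31 (SE 0.12, q = 4.3e-34 by limma), with 47 of 47 strains in this direction, and higher in lung than in kidney by 1.88 (SE 0.12, q = 1.1e-27 by limma) in 46 of 47 strains. The exception was CC016, whose kidney was above its lung.

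The other abundant genes had contrasts of like size. The log2 fold change of liver against lung was -2.35 for H2-Ab1, -2.26 for H2-Eb1, -2.36 for Cd74, -2.46 for H2-DMa and -2.51 for H2-DMb1, with standard errors between 0.11 and 0.12. Between lung and kidney it was 1.72 for H2-Ab1, 1.59 for H2-Eb1, 2.25 for Cd74, 1.93 for H2-DMa and 1.37 for H2-DMb1, the smallest of the 9. The fitted values were larger for H2-Eb2 (-3.39 for liver against lung and 3.13 for lung against kidney), H2-DMb2 (-3.28 and 2.90) and H2-Oa (-3.30 and 2.61). These 3 genes passed the filter through lung, where 41, 43 and 42 libraries had more than 1 CPM against 0, 1 and 0 in liver and 3, 8 and 3 in kidney, so they had to differ and give no support of their own.

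Liver and kidney were closer. H2-DMb1 alone of the 9 was called, higher in kidney by 1.14 on the log2 scale (SE 0.11, q = 1.8e-17 by limma) in 47 of 47 strains, where 22.0% of all genes were called higher in kidney and 14.7% higher in liver. The fold change of liver against kidney was -0.43 for H2-Aa (95% interval -0.67 to -0.19), -0.63 for H2-Ab1 and -0.52 for H2-DMa, under the fold required, and -0.12 for Cd74 (-0.36 to 0.13, q = 0.37 by limma). This count depended on scaling: with counts scaled by library total instead of TMM, 8 of the 9 were called, all higher in kidney, but the median of all genes then moved from -0.07 to -0.95 in the same direction, and the median over the 9 from -0.52 to -1.48.

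**Figure D2:**
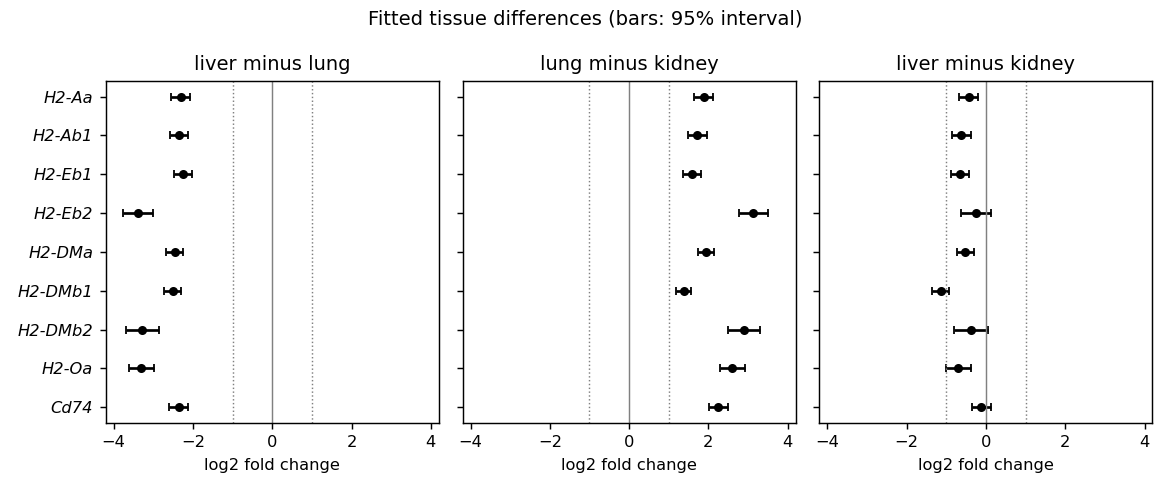
Fitted log2 fold changes of the 9 class II genes tested, with 95% intervals, for liver minus lung, lung minus kidney and liver minus kidney. The dotted lines mark the fold required for a call. All 9 points lie beyond it in both comparisons with lung, and H2-DMb1 alone does between liver and kidney.

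Markers of dendritic cells and B cells were highest in lung too, whereas macrophage genes were split between lung and liver. The lists did not all share the order of liver and kidney. The summed TPM of 10 dendritic cell genes ranged from 11.9 to 166 in lung, from 2.64 to 29.01 in kidney and from 0.89 to 21.1 in liver, and that of 11 B cell genes from 4.08 to 558.2 in lung, from 1.21 to 18.9 in kidney and from 0 to 8.37 in liver. Of 11 B cell and 10 dendritic cell genes, 8 and 5 were tested. All of these were called higher in lung in both comparisons, with Itgax, the dendritic cell integrin CD11c, at -5.46 in liver against lung. The B cell genes tested had medians of at most 0.59 TPM in liver and 1.07 in kidney. Genes this scarce pass the filter on low counts mainly through lung, and such calls give no support of their own. Of 10 macrophage genes, 3 were higher in lung than in liver, with Lyz2 at -5.42 and Cd14 at -1.85, and 3 were higher in liver, with C1qb at 1.34. Between liver and kidney, 7 macrophage genes and 3 B cell genes were higher in liver and none in kidney, while 2 dendritic cell genes were higher in kidney. The 3 B cell genes, Blk, Ms4a1 and Pax5, had medians of at most 0.42 TPM in both tissues. In TPM the median of the B cell sum was 3.18 in liver and 3.58 in kidney. In whole tissue, more cells of a type and more RNA per cell cannot be told apart, and the part of cell number in the class II differences was not tested.

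Genes upstream and around the class II system moved less uniformly. Of 13 regulators of the class II promoter, 6 were tested, and none was called between lung and kidney, while between liver and lung Nfyb, a subunit of the factor that binds the Y box, was higher in liver (1.21) and the coactivator gene Ep300 was lower (-1.12). Of 7 interferon-gamma axis genes tested, 3 were higher in lung than in liver, namely the interferon-induced Gbp2 (-2.43) and Irf1 (-2.26) and the receptor gene Ifngr1 (-1.87), and 5 were higher in lung than in kidney. Of 9 tested genes of peptide loading and processing, 4 were higher in liver than in lung, led by the protease gene Ctsl (2.91), and 2 were higher in lung, one of them H2-Ob, the partner of H2-Oa, at -4.07. Lgmn, the endosomal protease legumain, was higher in kidney than in lung (-2.92 for lung against kidney) and than in liver (-2.89 for liver against kidney). Of 8 tested genes listed as lying in or near the class II region without being class II genes, 1 was called between liver and lung. This was Notch4, higher in lung (-4.199). Against kidney, 5 of the 8 were called higher in lung, led by Notch4 (2.59), Psmb9 (2.21) and Psmb8 (2.07). Between liver and kidney, Psmb9 (2.61) and Psmb8 (2.32), subunits of the immunoproteasome, were higher in liver. All 7 tested genes of co-stimulation and class II receptors were higher in lung than in kidney, led by Cd28 (3.54), Cd4 (2.77) and Cd274 (2.27). Against liver this list was split. Between liver and lung, 4 were higher in lung and 1, Cd1d1, was higher in liver (5.21). Between liver and kidney, 4 were higher in liver, led by Cd1d1 (6.42), and 1, Icosl, was higher in kidney (-2.61).

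Next, it was asked whether the 3 libraries of a strain deviate together from the tissue means. By the limma F test over 46 strain terms, 8 of the 9 class II genes had a strain effect at q at most 0.1, against 56.7% of all 12127 genes, so this share by itself says little. H2-Eb1 had the largest F of the 9 (6.82, q = 5.6e-14), a value that 2.14% of all genes exceeded. It was followed by H2-DMa (F 4.56), H2-Aa (4.06), H2-Ab1 (3.83), H2-DMb1 (3.75), H2-Eb2 (3.32), Cd74 (2.97) and H2-Oa (2.12). H2-DMb2 did not pass (F 1.24, q = 0.26 by limma), but without CC016 and CC020 it did (F 2.38, q = 0.0011 by limma), as did all 8 members then tested.

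Relative to H2-Aa, H2-Eb1 fell into separate high and low groups of strains. Expressed as a percentage of the TPM of H2-Aa in the same library, it lay between 0.643 and 3.67% in 11 strains and between 21.5 and 76.9% in 36 strains in lung, with no library between. In kidney the same 11 strains lay between 0 and 1.67% and the other 36 between 23.7 and 78.8%. In liver the 11 strains were again low, at most at 2.996%, and the liver library of CC032 joined them at 1.20%, while the other 35 lay between 13.3 and 83.5%. In TPM the groups overlapped in liver and kidney, where CC016, a low strain with very high H2-Aa, held 19.02 and 35.06 TPM of H2-Eb1. The low strains were CC012, CC015, CC016, CC019, CC021, CC025, CC035, CC039, CC053, CC055 and CC062.

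A second class II chain gene of the region was high or low by strain in another pattern. The gene of the I-E alpha chain, listed as H2-Ea-ps (chr17:34478897-34481589, annotated as a pseudogene) and not one of the 10, is given because it encodes the partner of the H2-Eb1 chain, and it was chosen after its values were seen. In 18 strains it was at 32.4 to 130.7% of the TPM of H2-Aa in kidney, and in 29 strains at 0.576% or less. The same 18 strains were high and 27 were low in all 3 tissues. The remaining 2 strains differed between their own tissues: CC010 held 147.2 TPM of H2-Ea-ps in lung and 0 in liver and kidney, and CC032 held 93.2 TPM in liver and 0 in lung and kidney. Of the 11 strains low in H2-Eb1, 7 were high and 4 low in H2-Ea-ps, and of the other 36 strains, 11 were high and 23 low in all tissues. Both I-E chain genes were thus in the higher range in every tissue in 11 of 47 strains. For both genes, the part of alignment to each strain's own sequence in the low values was not tested.

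The strains were then grouped by a mark that does not use expression. Each strain's reads were counted on a transcriptome made from its own haplotypes, and the transcript lengths in the files differ by a few bases between strains but were the same in the 3 tissues of all 47. Over 8 genes of the region (H2-DMa, H2-DMb1, H2-Ob, H2-Ab1, H2-Aa, H2-Eb1, H2-Ea-ps and H2-Eb2) the lengths formed 13 profiles, 7 of them shared by 2 or more strains and holding 41 strains. The grouping was chosen after the data were seen, and strains with equal lengths need not share a haplotype. Profile 1 held 16 strains, with an H2-Eb1 transcript of 1669 bases and an H2-Ea-ps transcript of 783. Profile 2 held the 7 strains CC012, CC015, CC016, CC019, CC035, CC053 and CC055, with lengths of 1666 and 779 bases.

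H2-Eb1 and H2-Ea-ps followed these profiles closely. In profile 1, H2-Eb1 was at a median of 36.6% of H2-Aa in lung (30.1 to 75.5%), and H2-Ea-ps was at a median of 0, with CC010 in lung and CC032 in liver as the exceptions. In all 7 strains of profile 2, H2-Eb1 was low, with a median of 0.939% in lung (0.790 to 3.67%), and H2-Ea-ps was high, with a median of 54.2% (41.5 to 61.5%). The 3 strains of profile 6 (CC025, CC039 and CC062) were low in both, at a lung median of 1.13% and 0%, although their H2-Eb1 and H2-Ea-ps transcripts had the same lengths, 1667 and 779 bases, as those of profile 3, where H2-Eb1 was at a median of 33.6%. The 5 strains of profile 4 (CC005, CC007, CC045, CC049 and CC057) were high in both, at a lung median of 46.2 and 89.1%, as were the 3 strains of profile 5 (CC017, CC024 and CC029) at 48.2 and 80.2%.

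Of the members, H2-Eb1 was the 1 whose level was called by length profile. The limma F test over the 7 shared profiles within lung, adjusted over all 12873 genes tested, gave q = 1.0e-09, and in kidney q = 0.0002; 0.241% of all genes were called in lung and 0.326% in kidney. In liver H2-Eb1 missed the threshold (q = 0.30 by limma, 0.326% of all genes called), with an unadjusted p of 0.0027, and passed it without CC010, CC032 and CC042 (q = 0.077 by limma). H2-Ea-ps was called in lung (q = 1.2e-18), kidney (q = 1.1e-09) and liver (q = 8.2e-08) by limma. In lung, where all 10 members were tested, the other 9 had q of 0.99 or more by limma, with the lowest unadjusted p, 0.040, for H2-Eb2.

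**Figure D3:**
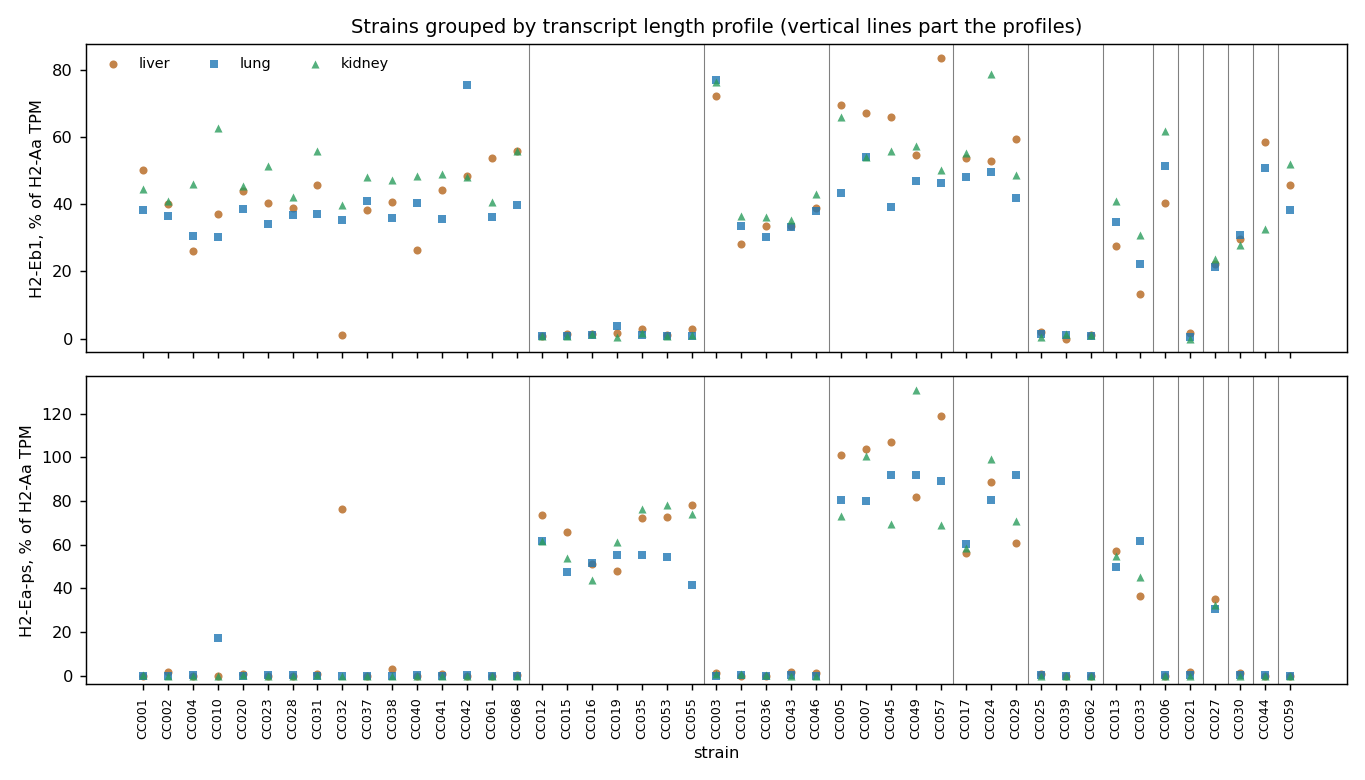
H2-Eb1 (top) and H2-Ea-ps (bottom) as a percentage of the TPM of H2-Aa in the same library, for 47 strains ordered by transcript length profile, in liver (brown circles), lung (blue squares) and kidney (green triangles). H2-Eb1 is near 0 in 11 strains in all tissues, H2-Ea-ps is high in 18, and single libraries of CC010, CC032 and CC042 depart from the other tissues of their strain.

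Relative to H2-Aa, H2-Ab1 varied by profile as well, although its level was not called. The profiles took up 57.003% of the variance of the normal scores of the ratio of H2-Ab1 to H2-Aa in lung (permutation test over 41 strains, p = 1e-05, the smallest possible, adjusted p = 1.5e-05 over 6 tests), 48.7% in liver (permutation p = 0.00026) and 42.3% in kidney (permutation p = 0.0026). In lung, H2-Ab1 was at 34.7 to 58.2% of H2-Aa in the 7 strains of profile 2 (median 45.96%) and at 79.6 to 109.5% in the 3 strains of profile 5 (median 85.6%), with no overlap. Without CC010, CC032 and CC042 the shares were 61.2, 53.04 and 46.4%. The lengths of both transcripts differ by only a few bases between profiles. The part of alignment to each strain's own sequence was not tested. For the ratio of H2-Ab1 to Cd74, the profiles took up 15.4% of the variance in liver, 19.5% in lung and 35.8% in kidney. The unadjusted permutation p, among 27 tests, was 0.42, 0.25 and 0.013.

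CC003 departed from the other strains of its profile in all 3 tissues. Its H2-Eb1 was at 76.9% of H2-Aa in lung, 72.1% in liver and 76.4% in kidney, against a profile median of 33.6% in lung. Its H2-Ab1 was at 113.2% of H2-Aa in lung and its Cd74 at 56.0%. The lung library of CC042 gave similar values (75.5, 109.4 and 80.7%), and its kidney and liver did not.

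Levels of the class II genes over strains were related between tissues. Pearson correlations of normal scores of TMM-normalized TPM were tested by 100000 permutations for 10 genes and 3 tissue pairs, 30 relations. Between lung and kidney, r was 0.60 for H2-Aa (Spearman rho 0.55) and H2-Ab1 (rho 0.60) and 0.62 for H2-DMa (rho 0.58), each over 47 strains with a permutation p of 1e-05 for r, the smallest possible, of at most 7e-05 for rho, and an adjusted p of 0.00038 for r over all genes. With the 2 most distant strains left out, r was 0.58, 0.53 and 0.55. At an adjusted p of at most 0.1 over 12127 genes, 8 of the 9 members correlated positively between lung and kidney, against 15.5% of all genes. Between liver and lung 7 of 9 did, against 10.3%, and between liver and kidney 6 of 9, against 18.0%. The 8 include H2-Eb2, H2-DMb2 and H2-Oa, which passed the filter through lung. For these genes 40, 31 and 30 of 47 kidney libraries were at or under 3 counts. The 7 include H2-Oa, for which 45 of 47 liver libraries were. The number of relations that passed depended on scaling and on few strains: of the 30 relations, 24 passed an adjusted p of 0.05 over the 30, against 12 with TPM not scaled by TMM, 16 without the 2 farthest strains and 18 without CC016 and CC020, and 24 again without CC015.

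Cd74 was the exception between lung and kidney (r = 0.35, rho = 0.35, permutation p = 0.017 and 0.015, adjusted p = 0.10 over all genes). For H2-Aa between liver and lung, r was 0.41 (rho = 0.31, permutation p = 0.0050 and 0.034, adjusted p = 0.062 over all genes) and fell to 0.27 without the 2 farthest strains. Ciita, at or under the floor in most liver and kidney libraries, gave r = -0.01 between lung and kidney (rho = -0.07, permutation p = 0.97 and 0.62). As H2-Eb1 falls into separate groups of strains, it was correlated within each. Over the 36 strains with higher levels, r was 0.55 between lung and kidney (rho = 0.48, permutation p = 0.00043 and 0.0030, adjusted p = 0.0052 over 12 relations), 0.44 between liver and lung and 0.52 between liver and kidney, and over the 11 low strains it was 0.46, 0.22 and 0.34, with permutation p between 0.16 and 0.51.

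A ratio within a library removes what moves a gene and Cd74 together, and for part of the genes the ratio was also shared between tissues. Over 27 relations, the ratio of H2-Aa to Cd74 correlated between liver and lung (r = 0.54, rho = 0.54, adjusted permutation p = 0.00068 and 0.00086), between liver and kidney (r = 0.43, rho = 0.38, adjusted permutation p = 0.0075 and 0.018) and between lung and kidney (r = 0.42, rho = 0.46, adjusted permutation p = 0.0087 and 0.0044). Without the 2 farthest strains, r between liver and kidney was 0.25. H2-Ab1 and H2-DMa had an adjusted permutation p of at most 0.048 for r in all 3 pairs, but by rho H2-Ab1 between liver and kidney and H2-DMa between liver and lung were at 0.11. For H2-DMb1 the adjusted permutation p ranged from 0.14 to 0.53, for H2-DMb2 from 0.10 to 0.73 and for H2-Oa from 0.25 to 0.97.

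Within a tissue the class II genes rose and fell with Cd74. Leaving H2-Eb1 aside for its separate groups of strains, every gene correlated positively with Cd74 in every tissue, with an adjusted permutation p of at most 0.048 for r. By rho, H2-Eb2 and H2-DMb2 in liver, mostly under the floor there, missed 0.05 (adjusted permutation p = 0.078 each). The median r over the 7 such genes that passed the filter came to 0.69 (liver), 0.52 (lung) and 0.62 (kidney), and that over all 12126 genes tested to 0.0050, 0.0047 and 0.0072. Of the 27 relations computed, 22 passed without the 2 farthest strains, 23 without CC016 and CC020 and 25 without CC015. The r was 0.88 for H2-Aa in liver, 0.83 in kidney and 0.62 in lung, and 0.69, 0.74 and 0.62 for H2-DMa (permutation p = 1e-05 each). It was weaker for H2-Oa, at 0.36 in liver, 0.38 in lung and 0.38 in kidney, and for H2-DMb2 in lung at 0.33, and without the 2 farthest strains H2-Oa was at 0.18 in liver and 0.26 in kidney. In liver 45 of 47 libraries were at or under the floor for H2-Oa and 46 for Ciita.

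For the cell markers that the genes moved with, 90 relations with marker sums were computed. In lung, H2-DMb2 correlated with the sum of 11 B cell genes at r = 0.78 and rho = 0.73, and H2-Oa at r = 0.69 and rho = 0.70 (permutation p = 1e-05 each). For H2-Aa the corresponding values were 0.20 and 0.23, and for Cd74 0.24 and 0.22. H2-Eb2 (r = 0.34), H2-DMb1 (0.32) and Ciita (0.41) lay between. H2-Aa and H2-Ab1 in lung had r = 0.51 and 0.53 with the dendritic cell sum, and 0.03 and 0.09 with the macrophage sum. Each sum adds its genes without weights, so abundant genes count most. The macrophage sum had a median of 7367 TPM in lung and 254 in liver, though 3 of its 10 genes were called higher in lung than in liver. Which cells the sums stand for in lung was not tested. In kidney, H2-Aa, H2-Ab1, H2-DMa and Cd74 all had r between 0.64 and 0.67 with both the dendritic cell and the macrophage sum, and between 0.14 and 0.24 with the B cell sum. These values describe each gene, and the differences between them were not tested.

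**Figure D4:**
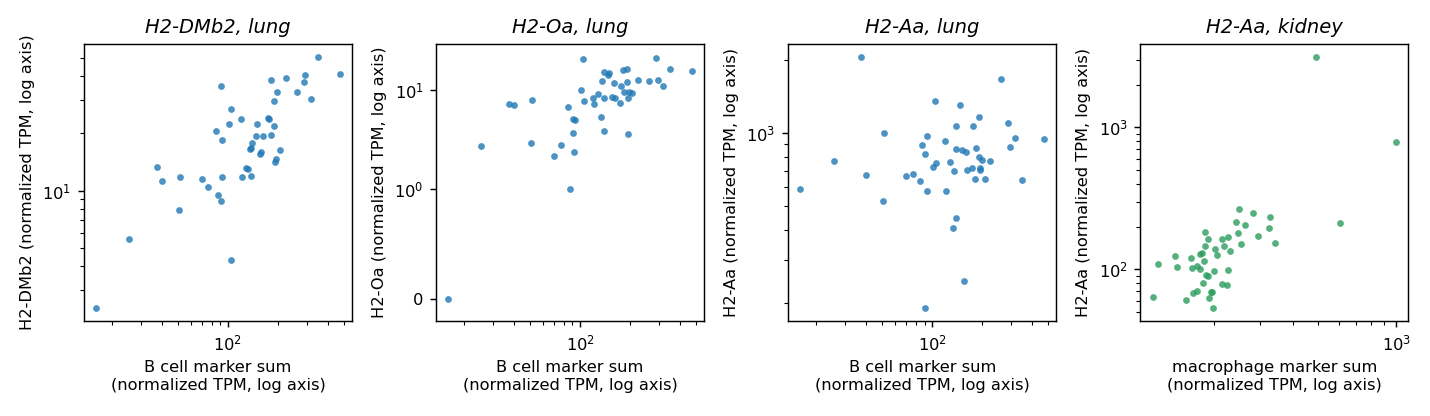
TMM-normalized TPM of H2-DMb2, H2-Oa and H2-Aa in lung against the summed B cell markers, and of H2-Aa in kidney against the summed macrophage markers, 1 point for each of 47 strains on log axes (linear below 1 for H2-Oa). H2-DMb2 and H2-Oa rise with the B cell sum (rho 0.73 and 0.70), whereas H2-Aa in lung is scattered over it (rho 0.23).

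Genes with the most similar pattern over 47 strains were listed by Spearman rho, as a description. For H2-DMb2 in lung they were Blk (0.76), Siglecg (0.74) and Pax5 (0.73), and for H2-Oa Cxcr5 (0.73), Blnk (0.73) and H2-Ob (0.72), all known from B cells. For H2-Aa in kidney they were Tyrobp (0.84), Nckap1l (0.79) and Cybb (0.78), genes of myeloid cells, and the same 3 genes led for Cd74 in kidney (0.80, 0.80 and 0.78). For H2-DMb1 in lung they were Snx20 (0.76), H2-K1 (0.74) and Ogfr (0.68), H2-K1 being a class I gene. For H2-Eb1 in lung, Psmb8 (0.66) and Tap2 (0.63), both genes of the class II region, came first, and for Ciita in lung Parp14 (0.65), Ms4a4c (0.59) and Gbp9 (0.58). In liver the highest values were lower: Il18bp (0.64), Btk (0.61) and Wdfy4 (0.61) for H2-Aa, Cxcl9 (0.62) for H2-Ab1 and Cybb (0.66) for H2-DMa.

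CC016 had the highest level of 9 of the 10 genes in liver and of 8 in kidney. Its H2-Aa was at 1444 TPM in liver, 28.97 times the median of the tissue, and at 2431 TPM in kidney, 18.1 times the median. Its Cd74 was at 161.2 TPM in liver (19.4 times) and 329.3 TPM in kidney (20.6 times), and H2-DMa was raised 25.02 and 14.1 times. In lung the same mouse was at 2.06 times the median for H2-Aa and had the highest Ciita of all 47 lungs, 3.73 TPM. H2-Eb1, low in this strain, was at 1.17 times the median in liver and 0.682 times in kidney.

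In liver and kidney, the immune cell sums of CC016 were at lower multiples of the median than its H2-Aa, Cd74 and H2-DMa. In kidney the macrophage sum was at 1.80 times the median, the dendritic cell sum at 1.57, the T cell sum at 2.31 and the B cell sum at 0.447 times. H2-Oa there was at 1.35 times. The sum of the interferon-gamma axis genes was the highest of 47 in all 3 tissues, at 2.01 times in kidney, 2.49 in liver and 2.07 in lung. The part of these sums in the class II values was not tested. In liver the macrophage sum was at 5.42 times, the dendritic cell sum at 4.70 times and the T cell sum at 9.86 times the median, each the highest of the tissue. The kidney proximal tubule sum of its kidney library was at 0.328 times the median.

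CC020 was the other strain with raised levels, in kidney alone. Its H2-Aa there was at 724.3 TPM (5.39 times the median) and its Cd74 at 89.6 TPM (5.60 times), with the T cell sum at 11.3 times, the B cell sum at 4.35 times, the macrophage sum at 4.34 times and the kidney proximal tubule sum at 0.381 times. Its liver and lung were at 1.36 and 1.13 times the median for H2-Aa. The lung of CC015 lay at the other end, with H2-Aa at 149.1 TPM (0.173 times the median), Cd74 at 0.123 times and H2-DMb1 at 0.0817 times. Its B cell sum was at 0.026 times the median, its T cell sum at 0.0681 times and its alveolar type 2 cell sum at 0.197 times, all the lowest of 47 in TPM. With TMM scaling, chosen as an alternative after seeing the data, this lung was closer to the rest: its H2-Aa was at 0.765 times the median and rank 40 of 47, Cd74 at 0.532 times, H2-DMb1 at 0.366 times, the alveolar type 2 cell sum at 0.879 times and the macrophage sum at 1.17 times. The B cell sum (0.116 times) and the T cell sum (0.273 times) were still the lowest. H2-Aa of CC016 with TMM was at 37.9 times the median in liver and 25.01 times in kidney. The part of these markers in the class II values was not tested. Without CC016 and CC020, all 8 class II genes then tested were still higher in lung than in liver and in kidney; H2-Eb2 no longer passed the filter.

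**Figure D5:**
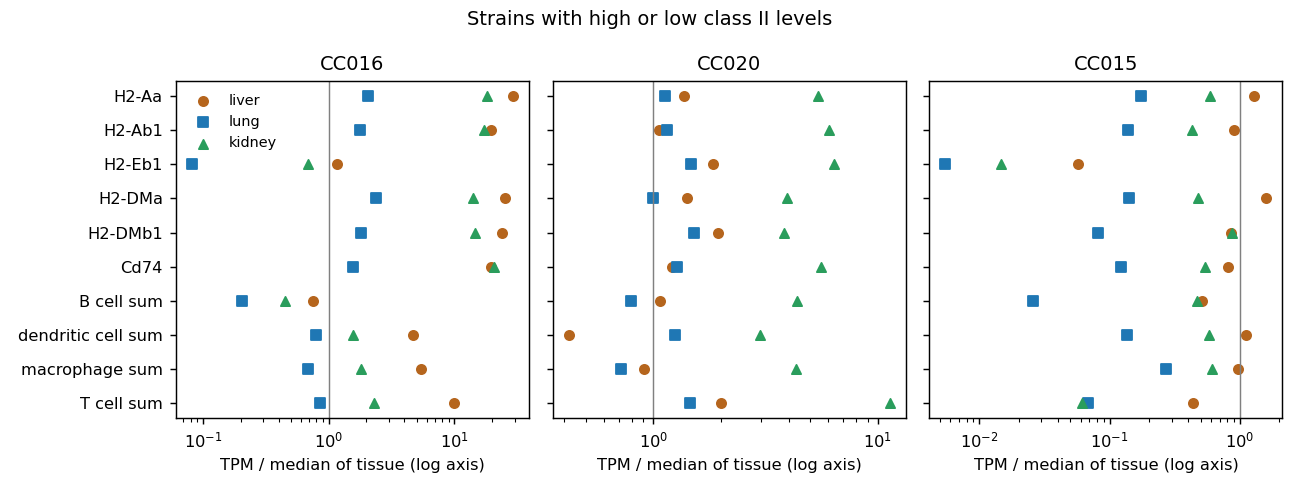
TPM of class II genes and summed markers of immune cells in strains CC016, CC020 and CC015, divided by the median of the tissue over 47 strains, on a log axis, in liver (brown circles), lung (blue squares) and kidney (green triangles). In CC016 the liver and kidney points of H2-Aa, H2-Ab1, H2-DMa, H2-DMb1 and Cd74 lie at 14.1 times the median or more, and in CC015 the lung points of the class II genes lie at 0.173 times or less, a distance that shrinks to 0.765 times for H2-Aa with TMM scaling.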

How the data were processed

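RNA was sequenced from the liver, lung and kidney of 1 male mouse for each of 47 strains, with tissue and strain taken from the labels. The authors mapped quality-filtered reads to pseudo-genomes of each strain (Build37, mm9) with RSEM and STAR 2.5.3a and kept uniquely aligned reads. For each of 24423 genes the authors deposited a transcript length, a TPM value and an expected count, and whether counting used strand is not given in the sources used here. The deposited expected counts were rounded to whole numbers (25 values were not whole). The deposited TPM values, which the authors scaled to the same total per library, were used for levels and ratios.

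A gene was kept where at least 30% of libraries exceeded 1 CPM. Tissue and strain effects were fitted with limma-voom (limma 3.58.1, edgeR 4.0.16, R 4.3.3) after TMM scaling, with tissue and strain as terms, and called at a Benjamini-Hochberg q of at most 0.1, for tissues also with a log2 fold change of 1 or more in size. Batch, a term in the paper's own model, was left out because no label gives it. Its part in the tissue, strain and correlation results was not tested. The strain number pairs the tissues because the libraries came from the same mouse: deviations from the tissue means had a median correlation of 0.18 to 0.22 within a strain and were over 0.1 in 39 to 45 of 47 strains. Correlations over strains used rank-based normal scores of TMM-normalized TPM and 100000 permutations (two-sided, scipy 1.17.1), with a pseudocount of 0.5 TPM in ratios, those between neighbours in the order of levels included. The test by transcript length profile, fitted within each tissue, was added after the data were seen. Fits were tested on simulated data.

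Named genes are the 10 members, the 3 genes of each list with the largest called fold change, and the 3 genes most similar to each member by Spearman rho. The members and lists were chosen with earlier results of these data known, and 7 listed symbols were not found among the genes. Low counts limit H2-Eb2, H2-DMb2, H2-Oa and Ciita in liver and kidney. Alternatives were other scalings, filters, thresholds and scales, edgeR and DESeq2 1.42.0 tests, and leaving out strains.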

Additional observations from a re-analysis of the deposited data

How the results depend on the processing

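The 9 class II genes tested were higher in lung than in liver and kidney with every scaling and test tried, or all of those still tested where a filter or fewer strains left 6 or 8. Between liver and kidney the call depended on the processing: 8 genes passed with total counts, 5 on log2(TPM + 1), 8 on log2(TPM + 0.1), 2 with edgeR quasi-likelihood, 2 with DESeq2 and 7 by q alone. Over all genes, 12142 were called between liver and lung with no filter on low counts and 11333 by q alone, 6775 and 10633 between liver and kidney with total counts and by q alone, and 11042 between lung and kidney by q alone. Genes with a strain effect numbered 3713 with total counts, 3139 on log2(TPM + 1), 3123 from liver and lung, 4158 from lung and kidney and 4050 at q at most 0.01.

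By length profile, 55 genes were called in liver on log2(TPM + 1) and 14 with total counts, 18 and 9 in lung, and 13 and 13 in kidney. In liver 1 member, H2-Eb1, passed under both and without CC010, CC032 and CC042. These alternatives and the leaving out of strains were chosen after seeing the data. Level correlations passing between tissues numbered 12 in place of 24 with TPM not scaled by TMM. The cause of these changes was not tested.

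Without the replicate block for strain, 6677, 4458 and 5639 genes were called for liver against lung, liver against kidney and lung against kidney, and the number of class II genes called was the same. Depth limits the genes at or under 3 counts in most liver and kidney libraries.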
